A study of Mus musculus with 4 samples.

Results

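The glycolysis and hypoxia response genes described here are 32 mouse genes chosen by name, and all 32 were found in the feature lists of the 4 libraries, among 30380 gene symbols that the lists share. They comprise glucose and lactate transporters, enzymes from hexokinase to lactate dehydrogenase except aldolase, and regulators of these steps. Targets and controllers of the hypoxia-inducible factor HIF-1 make up the rest. Levels were taken in immune cells of brains that carried GL261, a mouse glioma line injected into the brain. Live CD45.2+ cells were sorted and profiled by droplet single-cell RNA sequencing, with 1 library for each of 4 groups. The groups were IFNaR-/- mice (KO, lacking the receptor for type I interferon) given anti-PD1, WT mice given anti-PD1, untreated KO mice and untreated WT mice. Anti-PD1, an antibody to the T cell checkpoint receptor PD-1, was given intraperitoneally at 200 ug per mouse on days 7, 11, 15 and 19 after tumour injection, and those cells were sorted on day 25. Untreated cells were sorted on day 20. Every mouse carried the tumour. Cell suspensions were pooled before the sort, and the sources used here do not say from how many mice. The protocol speaks of lung cells once, while the tissue is given as brain and microglial markers were present. Before the anti-PD1 sort, CD3+ and CD3- cells were mixed in equal parts, per the protocol. T cell gates held 667 of 8475 kept cells (7.87%) in anti-PD1 KO and 478 of 9464 (5.05%) in anti-PD1 WT, fewer than an equal mix holds, and the reason was not tested.

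Glycolysis splits glucose into pyruvate and yields ATP without oxygen, and lactate dehydrogenase and a proton-coupled transporter then turn pyruvate into lactate and carry it out of the cell. When oxygen is low, the prolyl hydroxylases no longer mark the HIF-1 alpha protein for destruction, and HIF-1 binds a short DNA element near many glycolytic genes and raises their transcription. Activated macrophages and T cells also raise glycolysis with oxygen present, and growing tumours hold poorly perfused regions, so these genes are read in tumour immune cells both as a metabolic and as an oxygen signature. HIF-1 alpha is controlled mostly at the protein level, which RNA counts do not see. Among the members, Slc2a1 and Slc2a3 carry glucose into the cell and Slc16a3 carries lactate out. The enzymes, in the order of the pathway, are Hk1, Hk2, Hk3, Gpi1, Pfkl, Pfkp, Tpi1, Gapdh, Pgk1, Pgam1, Eno1, Pkm and Ldha. The aldolase step, between Pfkp and Tpi1, has no member. Pfkfb3 and Pfkfb4 set the pace of the phosphofructokinase step, and Pdk1 keeps pyruvate from the mitochondria. Egln1 and Egln3 encode prolyl hydroxylases that sense oxygen, and Hif1a encodes HIF-1 alpha, their target. Bnip3, Bnip3l, Ndrg1, Ero1l, P4ha1, Mif, Adm, Hilpda, Ankrd37 and Higd1a are genes induced in hypoxia.

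The 4 libraries held 3705 to 9530 barcodes and 32410040 to 94732545 UMIs (counted molecules), and 2809 to 9464 cells per library passed the filter, with a median of 5152 to 9531 UMIs per cell. Cells were assigned to lineages by gates of at least 3 raw UMIs of a lineage's markers. Examples are P2ry12 and Tmem119 for microglia, Csf1r and Adgre1 for monocytes/macrophages and Cd3e and Trac for T cells, and no member is a gate marker. At most 1 UMI of certain other lineages' markers was allowed. The microglia gate set no limit on macrophage or dendritic cell markers, and T cell gates set none on NK or dendritic cell markers. The monocyte/macrophage gate allowed at most 1 microglial UMI and left out cells of the dendritic cell gate. The monocyte/macrophage gate held 3660 cells in anti-PD1 KO, 5861 in anti-PD1 WT, 903 in untreated KO and 1757 in untreated WT. The microglia gate held 2148, 1449, 293 and 416 cells in the same order of groups, the CD8 T gate 416, 215, 365 and 623, and the CD4 T gate 116, 153, 114 and 329. Conventional dendritic cells (252 in KO, 161 in WT) and neutrophils (74 and 75) passed 50 cells in the untreated libraries alone, and B (74), NK (91) and regulatory T cells (91) in untreated WT alone. The anti-PD1 WT library stood apart: its T cells had 2.10 UMIs of receptor V segments per UMI of receptor constant genes, against 0.0836 in anti-PD1 KO, 0.0161 in untreated KO and 0.0177 in untreated WT, although the labels name 1 kit for all. Genes with long introns were read higher in anti-PD1 KO than in anti-PD1 WT. The Spearman rho of intron length and log2 ratio over genes was 0.294 in monocytes/macrophages and 0.472 in CD8 T cells. In the untreated pair it was 0.052 and 0.125. Set against the untreated library of its genotype, anti-PD1 KO gave 0.332 and 0.463, and anti-PD1 WT gave 0.139 and 0.179. The V segment value thus stood apart in anti-PD1 WT, and the larger intron trend was in anti-PD1 KO. The V segment and intron differences are called library kind below, and their source is not known. Immediate-early and heat-shock genes (7 genes) summed to 3263 CPM in anti-PD1 KO monocytes/macrophages, 6089 in anti-PD1 WT, 13486 in untreated KO and 13520 in untreated WT, and their part in the results was not tested. The anti-PD1 libraries shared 95 barcodes, and other pairs 0 to 3. How many would be shared by chance is not given here, so no carry-over is read from these counts. Interferon-stimulated Isg15 followed the genotype labels, with 93.1 CPM in KO and 1329 in WT monocytes/macrophages after anti-PD1 and 129 and 2073 without it. Ifnar1 RNA was counted in the KO libraries (147 and 135 CPM) as in WT (84.0 and 131), which checks nothing where the counted part lies outside the deletion.

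HIF-1 binds DNA at a core of ACGTG or GCGTG, so promoter windows of the members were searched for both motifs on both strands. RefSeq promoter windows (GRCm38.p6, 250 bases before to 50 after a transcription start) were matched for 29 of the 32 genes, Ero1l through its current name Ero1a. At least 1 match lay in a window of 27 of them (93.1%), against 46.7% of 27025 genes with a window. Gpi1 and Tpi1 had none. ACGTG alone was found for 21 of 29 (72.4%) against 21.8% of all genes, and 2 or more matches for 22 (75.9%) against 22.9%. The windows of these genes are rich in CG, with a median of 25 CG pairs against 8 over all genes, and both motifs contain CG. Among genes with at least 10 CG pairs in a window, 25 of 27 members (92.6%) and 71.3% of all 12388 such genes held a match. In the narrower window of 100 bases before to 50 after the start, 23 of 29 members (79.3%) and 32.2% of all genes held one. A match describes letters in a window and not a bound site. Below are the windows with the most matches for 4 genes to which the results return: Ldha (chr7:46845554-46845853, plus strand, 7 matches), which makes lactate; Slc16a3 (chr11:120948817-120949116, plus strand, 2 matches), which exports it; Bnip3 (chr7:138909457-138909756, minus strand, 5 matches), a receptor for removal of mitochondria; and Hilpda (chr6:29272376-29272675, plus strand, 3 matches), a lipid droplet protein. They are written 5′ to 3′ on the gene's strand, and capitals mark ACGTG or GCGTG and their reverse complements CACGT and CACGC. The palindrome CACGTG counts as 2 matches, 1 on each strand.
Ldha: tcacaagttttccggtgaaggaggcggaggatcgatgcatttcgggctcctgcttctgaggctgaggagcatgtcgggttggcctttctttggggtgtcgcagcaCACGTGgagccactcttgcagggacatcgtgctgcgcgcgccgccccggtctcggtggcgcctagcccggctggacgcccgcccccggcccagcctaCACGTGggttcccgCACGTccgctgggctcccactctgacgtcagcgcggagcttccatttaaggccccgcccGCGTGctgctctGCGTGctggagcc
Slc16a3: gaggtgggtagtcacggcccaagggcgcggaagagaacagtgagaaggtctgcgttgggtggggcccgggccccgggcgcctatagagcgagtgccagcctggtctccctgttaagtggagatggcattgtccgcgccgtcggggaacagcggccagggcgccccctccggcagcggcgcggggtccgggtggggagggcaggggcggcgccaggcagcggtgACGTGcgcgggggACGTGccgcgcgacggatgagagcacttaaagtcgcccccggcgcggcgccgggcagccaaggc
Bnip3: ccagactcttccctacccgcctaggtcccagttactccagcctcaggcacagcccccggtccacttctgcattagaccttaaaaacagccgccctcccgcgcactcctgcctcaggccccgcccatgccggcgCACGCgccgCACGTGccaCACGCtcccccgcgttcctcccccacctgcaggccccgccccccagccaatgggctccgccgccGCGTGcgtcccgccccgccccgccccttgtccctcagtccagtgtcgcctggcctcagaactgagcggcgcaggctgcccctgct
Hilpda: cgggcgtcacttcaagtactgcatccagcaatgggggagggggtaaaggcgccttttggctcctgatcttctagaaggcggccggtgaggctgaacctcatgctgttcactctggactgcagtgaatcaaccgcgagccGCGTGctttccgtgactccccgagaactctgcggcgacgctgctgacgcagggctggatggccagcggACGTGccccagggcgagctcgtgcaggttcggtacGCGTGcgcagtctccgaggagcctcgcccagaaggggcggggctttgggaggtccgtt

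Levels are given as CPM, the UMIs of a gene per 1000000 UMIs of all genes in the cells of a gate, and the heat map of levels shows them for every gate and library. Summed over the 32 genes, monocytes/macrophages held 7913 CPM in anti-PD1 KO, 10521 in anti-PD1 WT, 6616 in untreated KO and 6928 in untreated WT. Microglia, the resident macrophages of the brain, held 5028 CPM in anti-PD1 KO, 6922 in anti-PD1 WT, 4441 in untreated KO and 4824 in untreated WT, which was below monocytes/macrophages in each library. CD4 T cells, which help other immune cells, held 6799 CPM in anti-PD1 KO, 7587 in anti-PD1 WT, 7774 in untreated KO and 6738 in untreated WT. CD8 T cells, which kill target cells, held 4646 CPM in anti-PD1 KO, 4448 in anti-PD1 WT, 5622 in untreated KO and 5555 in untreated WT, below the CD4 T cells of each library. Without treatment, dendritic cells held 4239.5 CPM in KO and 3649 in WT, and neutrophils 5238 in KO and 5427 in WT. In untreated WT, B cells had the lowest sum (2262 CPM) and NK cells the next (2798), and regulatory T cells stood at 6704. A sum is dominated by its most counted genes, here Gapdh, Mif, Hif1a, Pkm and Ldha. Adm, which encodes the vessel-widening peptide adrenomedullin, was at most 4.84 CPM in every gate but B cells of untreated WT (22.5 CPM) and is not taken further. Reads of Gapdh, Pgk1, Ldha, Eno1, Tpi1, Pgam1, Pkm and Mif can match near-identical processed copies in the genome, and how such reads were counted is not given in the sources used here, so these levels carry that uncertainty.

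**Figure D1:**
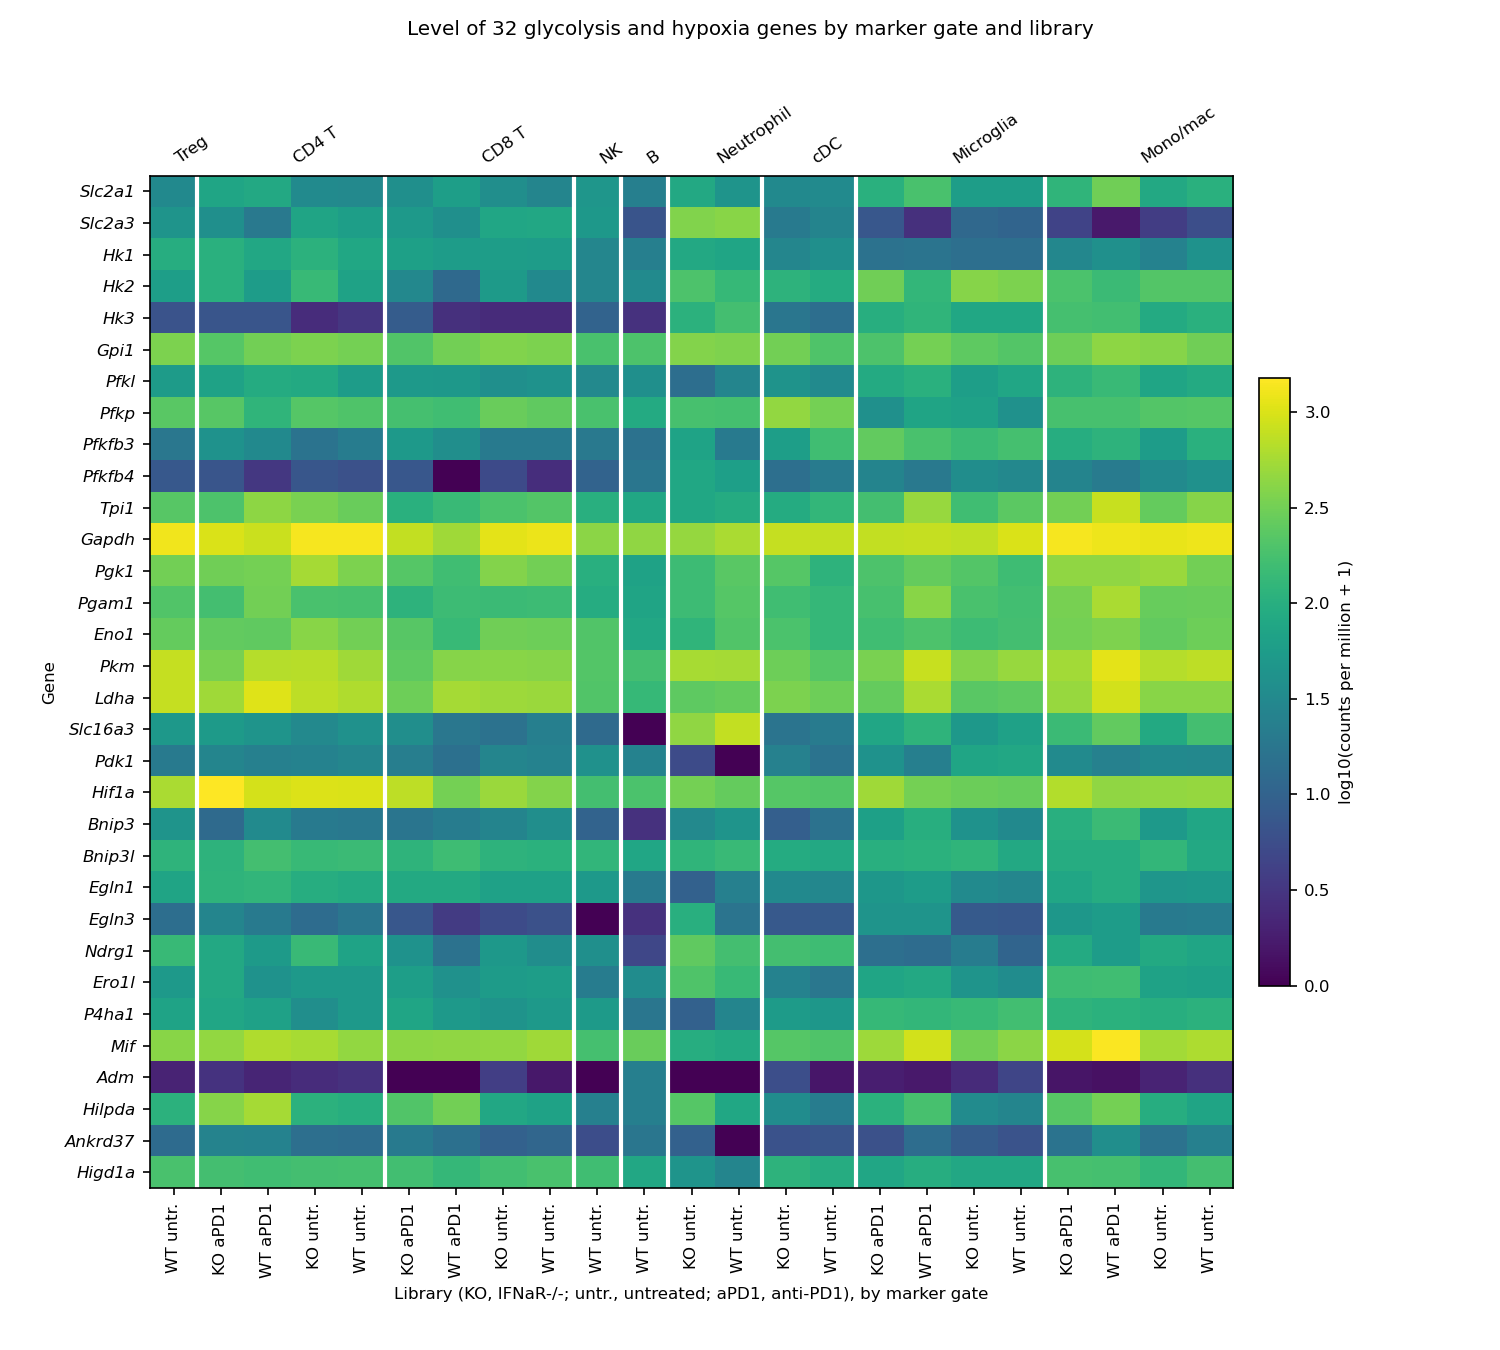
Level of each of the 32 genes as log10(CPM + 1) (colour) in every gate and library with at least 50 cells (columns; KO, IFNaR-/-; aPD1, anti-PD1; untr., untreated). Slc2a3 and Slc16a3 are brightest in the neutrophil columns, Hk3 is dark in T cells, Hif1a is brightest in CD4 T cells of anti-PD1 KO, and Adm is dark in all but B cells.

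Microglia held less RNA of most glycolytic and HIF target genes than monocytes/macrophages, each compared within 1 library and so within 1 kind of library. A gene was called higher or lower where the CPM differed at least 1.5-fold, with at least 50 UMIs in the pair. Square brackets hold 95% intervals of a log2 ratio, which cover counting error only. The interval of a called gene can reach into the other direction, and counting error alone then leaves its direction unsettled. Of 31 measured members, 20 were lower in microglia of anti-PD1 KO (against 13.2% of all genes measured), 16 in anti-PD1 WT (13.6%), 19 in untreated KO (14.2%) and 18 in untreated WT (16.1%). Members higher in microglia numbered 3 (23.5%), 2 (17.9%), 4 (20.8%) and 5 (27.5%) in the same order. In all 4 libraries, 12 were lower (6.66% of 9471 genes): Hk1, Pfkp, Tpi1, Pgk1, Eno1, Ldha, Slc16a3, Ndrg1, Ero1l, Hilpda, Ankrd37 and Higd1a. In both untreated libraries alone, 15 were lower (10.2%) and 4 higher (16.5%).

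Slc16a3, the lactate exporter MCT4, stood in microglia at 75.2 CPM in anti-PD1 KO, 115 in anti-PD1 WT, 48.1 in untreated KO and 64.6 in untreated WT. Monocytes/macrophages held it at 147 CPM in anti-PD1 KO, 263 in anti-PD1 WT, 85.5 in untreated KO and 168 in untreated WT. The log2 ratio of microglia over monocytes/macrophages was -1.37 to -0.83, and the gene was lower in microglia of every library. Ldha, the lactate dehydrogenase subunit that favours lactate, gave -0.87 to -0.63, with 230.4 CPM in KO and 248 CPM in WT microglia without treatment against 414 CPM in KO and 408 CPM in WT monocytes/macrophages. Pgk1, the first ATP-yielding enzyme of the pathway, gave -1.24 to -0.75. Ndrg1, a hypoxia and stress responsive gene, was the most uneven of the 31: microglia held 13.4 CPM in anti-PD1 KO, 12.3 in anti-PD1 WT, 20.9 in untreated KO and 9.50 in untreated WT, against 86.7 CPM in anti-PD1 KO, 55.9 in anti-PD1 WT, 85.0 in untreated KO and 73.4 in untreated WT in monocytes/macrophages. Its log2 ratio was -2.93 to -2.01. Pfkp, the platelet-type phosphofructokinase, gave -2.48 to -1.33, and Hilpda, which blocks lipid droplet breakdown, -1.52 to -0.88.

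Higher in microglia were Pfkfb3 and Slc2a3 in all 4 libraries and Hk2 and Pdk1 in some. Pfkfb3, which makes the activator fructose-2,6-bisphosphate, stood in microglia at 263 CPM in anti-PD1 KO, 184 in anti-PD1 WT, 145 in untreated KO and 173 in untreated WT. In monocytes/macrophages it stood at 94.6 CPM in anti-PD1 KO, 111 in anti-PD1 WT, 55.8 in untreated KO and 104 in untreated WT, and the log2 ratio of 0.72 to 1.48 was above 0 in each library. Slc2a3, the high-affinity glucose transporter GLUT3, was higher in microglia in all 4 libraries (8.85% of genes were), but at low levels of 1.76 to 10.9 CPM against 0.646 to 4.74 CPM in monocytes/macrophages. Hk2, the inducible hexokinase, was higher in microglia of 3 libraries, with 399 CPM in KO and 359 CPM in WT without treatment against 212 CPM in KO and 212 CPM in WT in monocytes/macrophages. In anti-PD1 WT its ratio was -0.19 [-0.26 to -0.13]. Pdk1, the kinase that keeps pyruvate out of mitochondria, was higher in microglia of both untreated libraries, at 1.21 [0.96 to 1.45] in KO and 1.46 [1.24 to 1.67] in WT, and was 0.35 [0.20 to 0.49] in anti-PD1 KO and -0.09 [-0.25 to 0.06] in anti-PD1 WT. P4ha1, a collagen prolyl hydroxylase, had its highest level of all described gates in microglia in each library (128 to 165 CPM). The 5 microglial gate markers summed to 903.7 to 1875 CPM in microglia and 18.1 to 36.7 CPM in monocytes/macrophages, and the 4 macrophage markers to 2205 to 4390.2 CPM in microglia and 1960.3 to 2981 CPM in monocytes/macrophages.

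**Figure D2:**
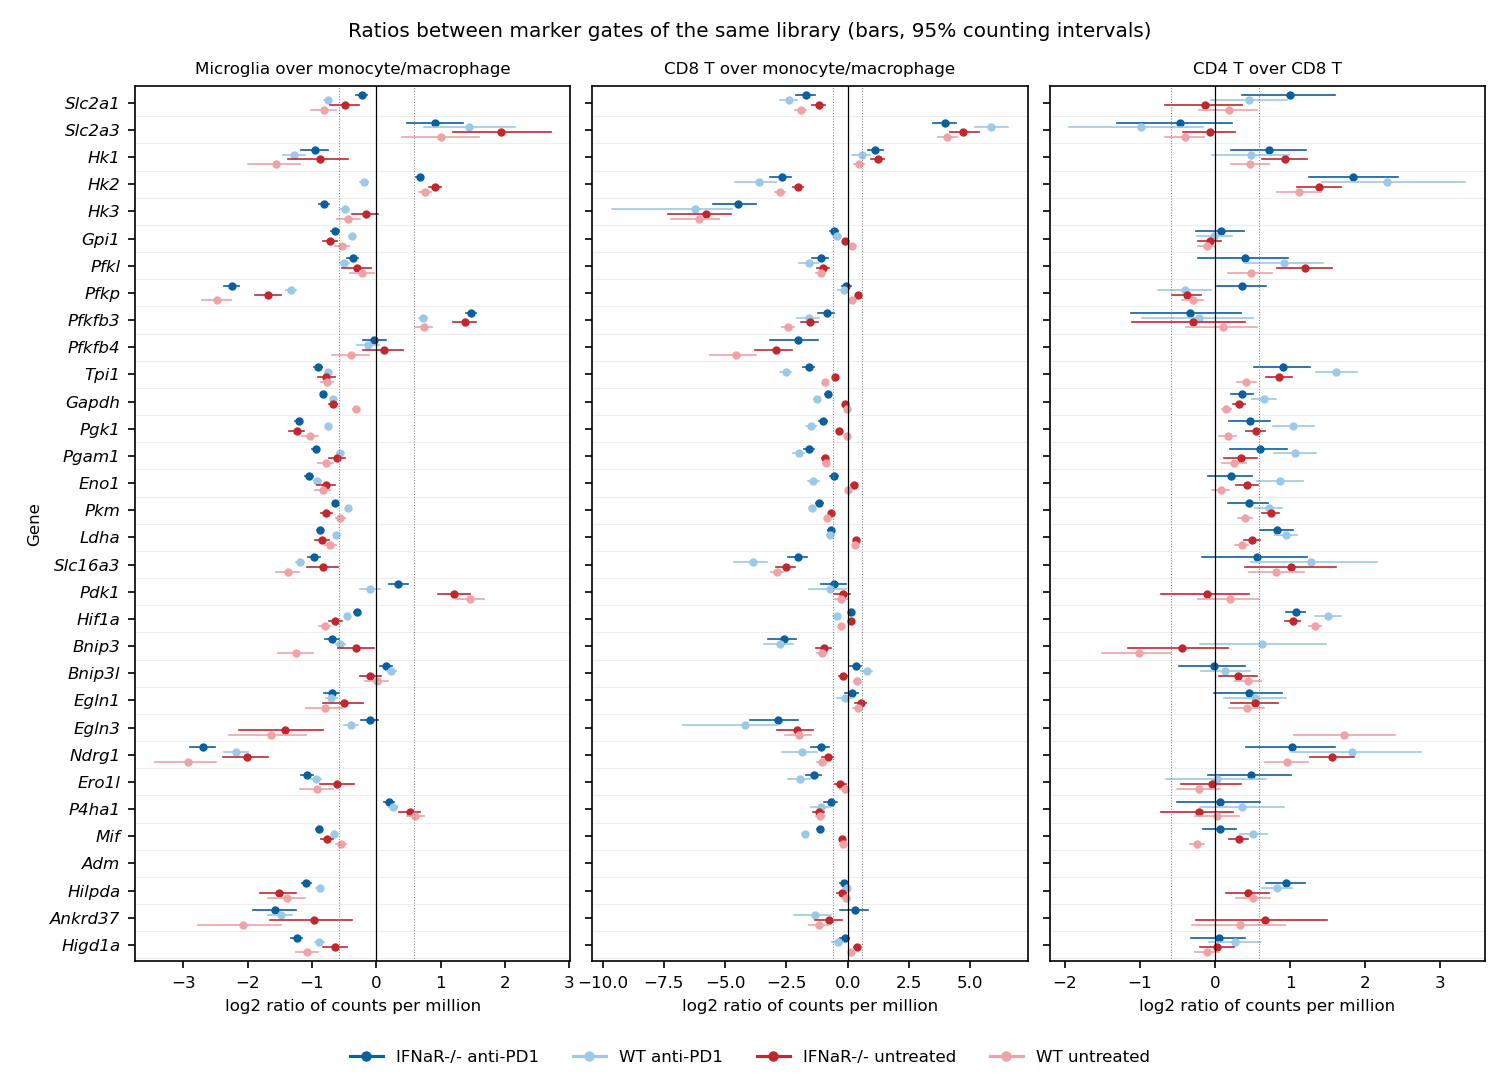
Log2 ratio of CPM between gates of the same library for each measured gene (points, 1 per library; bars, 95% counting intervals): microglia over monocytes/macrophages, CD8 T cells over monocytes/macrophages, and CD4 over CD8 T cells. In the first panel most points lie left of 0 and Pfkfb3 and Slc2a3 lie right of it; in the second, Hk3 lies at the far left and Slc2a3 at the far right; in the third, Hk2, Hif1a and Ndrg1 lie right of 0 in each library.

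CD8 T cells held less Slc2a1 and more Slc2a3 than monocytes/macrophages. Of 31 measured members, 19 were lower in CD8 T cells of anti-PD1 KO (26.0% of all genes), 22 in anti-PD1 WT (26.3%), 14 in untreated KO (27.5%) and 15 in untreated WT (28.1%). Members higher in CD8 T cells numbered 2 (40.1%), 2 (38.7%), 2 (28.7%) and 1 (30.7%) in the same order. The 13 lower in all 4 libraries (16.6% of 9469 genes) were Slc2a1, Hk2, Hk3, Pfkl, Pfkfb3, Pfkfb4, Pgam1, Pkm, Slc16a3, Bnip3, Egln3, Ndrg1 and P4ha1. Only Slc2a3 was higher in all 4 (17.6%), and in both untreated libraries 14 members were lower (22.8%) and 1 higher (23.0%). In CD8 T cells Hk3, a hexokinase of myeloid cells, had 7.44 CPM in anti-PD1 KO, 1.74 in anti-PD1 WT, 1.45 in untreated KO and 1.47 in untreated WT, against 174 CPM in anti-PD1 KO, 166 in anti-PD1 WT, 85.8 in untreated KO and 103 in untreated WT in monocytes/macrophages. Slc2a1, the widely used glucose transporter GLUT1, had 37.2 CPM in anti-PD1 KO, 59.2 in anti-PD1 WT, 35.9 in untreated KO and 27.0 in untreated WT there, against 121 CPM in anti-PD1 KO, 311 in anti-PD1 WT, 81.0 in untreated KO and 102 in untreated WT in monocytes/macrophages. Both genes were lower in CD8 T cells of every library. Slc2a3 ran the other way, with 52.0 CPM in anti-PD1 KO, 37.5 in anti-PD1 WT, 75.1 in untreated KO and 79.2 in untreated WT in CD8 T cells, against 3.33 CPM in anti-PD1 KO, 0.646 in anti-PD1 WT, 2.83 in untreated KO and 4.74 in untreated WT in monocytes/macrophages. Its log2 ratio of 3.97 to 5.85 rests on few UMIs in monocytes/macrophages, and the T cell markers counted there summed to 3.37, 2.47, 12.3 and 34.3 CPM in the same order of groups. The part of carried-over RNA in that gate was not tested.

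Pfkfb4, a second bifunctional regulator of phosphofructokinase, had 0 UMIs in CD8 T cells of anti-PD1 WT against 20.0 CPM in monocytes/macrophages, and 6.20, 4.12 and 1.61 CPM in anti-PD1 KO, untreated KO and untreated WT CD8 T cells. A count of 0 allows up to 3 UMIs, that is 2.61 CPM there. Of the lower pathway, Eno1 and Ldha were closer between the lineages without treatment, while Pgam1 and Pkm were lower in CD8 T cells of every library. Eno1, enolase, gave 0.25 [0.15 to 0.35] in untreated KO and 0.02 [-0.06 to 0.10] in untreated WT, and Ldha gave 0.32 [0.25 to 0.40] and 0.29 [0.23 to 0.35]. After anti-PD1 both stood below monocytes/macrophages, Ldha at -0.68 [-0.82 to -0.55] in KO and -0.72 [-0.84 to -0.61] in WT. In CD8 T cells Egln3, an oxygen-sensing prolyl hydroxylase that HIF-1 itself induces, had 6.20 CPM in anti-PD1 KO, 2.61 in anti-PD1 WT, 4.36 in untreated KO and 5.14 in untreated WT, against 46.9 CPM in anti-PD1 KO, 56.4 in anti-PD1 WT, 18.7 in untreated KO and 20.4 in untreated WT in monocytes/macrophages. Egln1, the main oxygen sensor of the family, did not pass 1.5-fold in any library (-0.12 to 0.53), nor did Hif1a (-0.45 to 0.15), Hilpda (-0.24 to -0.04) or Higd1a (-0.40 to 0.39), a mitochondrial protein of the hypoxia response. Less RNA of a gene per cell and fewer cells that read it cannot be told apart in these sums.

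CD4 T cells held more of several members than CD8 T cells of the same library. Higher members numbered 9 of 25 in anti-PD1 KO (12.4% of all genes), 14 of 26 in anti-PD1 WT (14.1%), 9 of 28 in untreated KO (12.3%) and 5 of 29 in untreated WT (14.9%), while 0 (12%), 1 (9.95%), 0 (9.05%) and 1 (8.15%) were lower. In all 4 libraries 3 of 25 were higher (4.19%), namely Hk2, Hif1a and Ndrg1, and 0 of 25 lower (2.30%). Hif1a, the oxygen-regulated subunit of HIF-1, stood in CD4 T cells at 1512 CPM in anti-PD1 KO, 935 in anti-PD1 WT, 1017 in untreated KO and 988 in untreated WT, against 719 CPM in anti-PD1 KO, 329 in anti-PD1 WT, 497 in untreated KO and 391 in untreated WT in CD8 T cells. CD4 T cells had the highest Hif1a level of all described gates in each library. Hk2 stood in CD4 T cells at 105 CPM in anti-PD1 KO, 56.8 in anti-PD1 WT, 137 in untreated KO and 67.3 in untreated WT, against 29.1 CPM in anti-PD1 KO, 11.3 in anti-PD1 WT, 52.3 in untreated KO and 31.0 in untreated WT in CD8 T cells. Ndrg1 gave log2 ratios of 0.96 to 1.82. In both untreated libraries Slc16a3 was higher as well, at 1.02 [0.40 to 1.61] in KO and 0.82 [0.45 to 1.18] in WT, which made 4 of 28 (7.65%) with 0 lower (3.60%). Cells with a UMI of 5 cell cycle genes made up 28.4% of CD4 and 25.2% of CD8 T cells in anti-PD1 KO, 23.5% and 26.0% in anti-PD1 WT, 64.0% and 63.3% in untreated KO, and 45.9% and 62.0% in untreated WT.

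Neutrophils and dendritic cells could be described without treatment alone. Neutrophils held more of Slc2a3 and of the lactate exporter Slc16a3 than monocytes/macrophages. Of 31 measured members 8 were higher than in monocytes/macrophages in KO (21.0% of all genes) and 8 in WT (19.7%), while 13 and 15 were lower (46.7% and 48.5%). Slc2a3 stood at 376 CPM in KO and 415 CPM in WT neutrophils against 2.83 CPM in KO and 4.74 CPM in WT monocytes/macrophages, and Slc16a3 at 449.8 CPM in KO and 765 CPM in WT neutrophils against 85.5 CPM in KO and 168 CPM in WT monocytes/macrophages. The log2 ratios were 7.04 [6.42 to 7.74] in KO and 6.45 [5.99 to 6.92] in WT for Slc2a3, and 2.40 [2.09 to 2.69] and 2.19 [1.97 to 2.40] for Slc16a3. Ero1l, the oxidase that drives disulfide bonds in the endoplasmic reticulum, was higher in neutrophils too, at 1.62 [1.15 to 2.03] in KO and 1.15 [0.60 to 1.61] in WT. Mif, a cytokine and HIF target, was lower at 95.1 CPM in KO and 85.4 CPM in WT neutrophils against 546 CPM in KO and 618 CPM in WT monocytes/macrophages. Pdk1 and Ankrd37, a HIF target of little known function, had 0 UMIs in WT neutrophils, which allows up to 11.6 CPM. The neutrophil gate also held 316 CPM of basophil and mast cell markers in KO and 314 CPM in WT, and its cells had a median of 2297 and 2861 UMIs.

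Dendritic cells, which present antigen to T cells, had 19 of 31 members lower than monocytes/macrophages in KO (18.1% of all genes) and 24 in WT (19.7%), and 3 higher in each (17.1% and 20.3%). Bnip3 stood at 8.26 CPM in KO and 14.6 CPM in WT dendritic cells against 51.2 CPM in KO and 75.1 CPM in WT monocytes/macrophages. Pkm, the pyruvate kinase, stood at 303 CPM in KO and 217 CPM in WT dendritic cells against 669.8 CPM in KO and 723 CPM in WT monocytes/macrophages. Pfkp was higher in KO dendritic cells, with 465 CPM in KO and 328 CPM in WT dendritic cells against 212 CPM in KO and 220.1 CPM in WT monocytes/macrophages, and in WT it stayed just under 1.5-fold (0.58 [0.45 to 0.70]). Slc2a3 and Ndrg1 were higher in dendritic cells of both genotypes. The gate held 455 CPM of plasmacytoid dendritic cell markers in KO and 855 CPM in WT, so it is not pure conventional cells. Regulatory T cells of untreated WT, which restrain other T cells, had 803 CPM of Pkm against 528 in CD4 T cells, 796 CPM of Ldha against 637, and 596 CPM of Hif1a against 988. The NK cells of that library had 210.4 CPM of Pkm and 208 CPM of Ldha, and its B cells 167 and 133 CPM.

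Whether the loss of the interferon receptor goes with other levels of these genes was read from KO over WT within each treatment. Without treatment, lactate exporter RNA was lower in KO monocytes/macrophages and Hk2 higher in KO T cells, but no member was higher or lower in all 4 of the gates that both treatments share (0 of 28 in each direction, against 0.223% higher and 1.12% lower of 6722 genes). In monocytes/macrophages 2 of 31 were higher (15.2% of all genes) and 5 lower (10.8%). In microglia 2 of 30 were higher (7.72%) and 0 lower (7.72%). In CD8 T cells 1 of 29 was higher (5.99%) and 1 lower (3.19%), and in CD4 T cells 3 of 29 were higher (7.42%) and 0 lower (7.14%). Dendritic cells had 4 of 29 higher (10.5%) and 2 lower (10.3%), and neutrophils 2 of 17 higher (16.9%) and 4 lower (11.3%). Over the 6 gates that is 14 values higher and 12 lower. The counts were 11 and 16 with TMM or DESeq2 scaling or relative to genes of like intron length. They were 18 and 10 with a total that leaves out mitochondrial, ribosomal and receptor segment genes. The share of all genes under these alternatives is not given here. Each group had 1 library and so no replicate check or test, and the ratios describe these libraries. Cells with a UMI of 5 cell cycle genes made up 64.0% of CD4 T cells in untreated KO and 45.9% in untreated WT. Without such cells the CD4 T gate fell below 50 cells in a library of this pair. The part of cycling cells in its ratios was thus not tested.

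Among transporters, Slc16a3 was lower in 3 KO gates. Monocytes/macrophages held 85.5 CPM in KO and 168 CPM in WT, a log2 ratio of -0.97 [-1.09 to -0.86]. In CD8 T cells it stood at 15.0 CPM in KO and 22.7 CPM in WT (-0.59 [-1.05 to -0.16]) and in neutrophils at 449.8 CPM in KO and 765 CPM in WT (-0.76 [-1.12 to -0.42]). The neutrophil value turned to 0.14 when cells were thinned to 1000 UMIs. Microglia (-0.42 [-0.71 to -0.14]), dendritic cells (-0.36 [-0.98 to 0.29]) and CD4 T cells (-0.39 [-0.96 to 0.13]) did not pass 1.5-fold. Slc2a1 did not pass it in any gate (-0.33 to 0.41). Slc2a3 gave -0.73 [-1.45 to -0.08] in monocytes/macrophages from 27 UMIs in KO and 64 in WT, and 0.27 as a mean over cells, so its direction there depends on how cells are weighed.

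Among enzymes, Hk2 was higher in KO T cells, at 137 CPM in KO and 67.3 CPM in WT CD4 T cells (1.03 [0.72 to 1.33]) and 52.3 CPM in KO and 31.0 CPM in WT CD8 T cells (0.76 [0.48 to 1.04]), while in monocytes/macrophages it stood at 212 CPM in KO and 212 CPM in WT (0.00 [-0.09 to 0.08]). Pgk1 was higher in KO monocytes/macrophages, dendritic cells and CD4 T cells and lower in KO neutrophils. It stood at 497 CPM in KO and 318 CPM in WT monocytes/macrophages (0.64 [0.58 to 0.70]), 221 CPM in KO and 113 CPM in WT dendritic cells (0.96 [0.74 to 1.19]), 565 CPM in KO and 354 CPM in WT CD4 T cells (0.68 [0.54 to 0.82]) and 151 CPM in KO and 229 CPM in WT neutrophils (-0.59 [-1.24 to 0.03]). Pfkfb3 was lower in KO monocytes/macrophages (55.8 CPM in KO and 104 CPM in WT, -0.89 [-1.04 to -0.75]) and dendritic cells (60.4 CPM in KO and 159 CPM in WT, -1.39 [-1.66 to -1.13]). Hk1, the constitutive hexokinase, was lower in KO monocytes/macrophages (-0.69 [-0.92 to -0.47]), and Pfkp was higher in KO microglia (65.8 CPM in KO and 39.4 CPM in WT, 0.74 [0.45 to 1.04]). Eno1 and Hk3 were lower in KO neutrophils (-0.75 [-1.48 to -0.08] and -0.61 [-1.40 to 0.12]), and Gpi1, which interconverts glucose and fructose phosphates, and Pdk1 were higher in KO dendritic cells (0.67 [0.50 to 0.85] and 0.66 [0.04 to 1.35]). Ldha, Pkm, Gapdh, Tpi1, Pgam1 and Pfkl did not pass 1.5-fold in any of the gates where they were measured.

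Among HIF targets and controllers, Ndrg1 was higher in KO microglia at 20.9 CPM in KO and 9.50 CPM in WT (1.13 [0.56 to 1.73]) and in KO CD4 T cells at 142 CPM in KO and 68.4 CPM in WT (1.06 [0.76 to 1.36]). Its neutrophil value of 0.61 [0.02 to 1.21] turned to -0.13 under the stricter cell filter, -0.19 without the cells of highest UMI count and -0.43 as a mean over cells. Hilpda was higher in KO neutrophils (216 CPM in KO and 77.6 CPM in WT, 1.46 [0.70 to 2.30]) and dendritic cells (33.9 CPM in KO and 20.6 CPM in WT, 0.71 [0.18 to 1.29]). Bnip3l, a receptor for removal of mitochondria like Bnip3, was higher in KO monocytes/macrophages at 128 CPM in KO and 82.1 CPM in WT (0.64 [0.52 to 0.76]), and Ankrd37 was lower there at 14.8 CPM in KO and 23.3 CPM in WT (-0.66 [-0.96 to -0.37]). Bnip3 was lower in KO dendritic cells (-0.83 [-1.63 to -0.01]) and gave -0.55 [-0.71 to -0.40] in monocytes/macrophages. Hif1a itself ranged over log2 ratios of -0.07 to 0.34 in 6 gates, and Egln1, Egln3, P4ha1, Mif, Ero1l and Higd1a did not pass 1.5-fold.

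After anti-PD1, KO cells held less Ldha and Pkm than WT cells in each of the 4 gates, in a pair of libraries that differed in kind. In monocytes/macrophages 2 of 31 members were higher (23.3% of all genes) and 8 lower (16.0%), and in microglia 4 of 31 were higher (29.2%) and 12 lower (13.8%). In CD8 T cells 6 of 27 were higher (27.1%) and 5 lower (15.0%), and in CD4 T cells 5 of 23 were higher (23.9%) and 5 lower (17.6%). Over these gates 17 values were higher and 30 lower. The split was 11 and 39 with DESeq2 size factors and 11 and 40 with TMM, which shift log2 ratios by -0.23 to -0.11 here. Such a shift applies to all genes, and their share past 1.5-fold under these factors is not given here. Pkm and Ldha were lower in all 4 gates (2 of 23, against 6.24% of 4009 genes), and 0 of 23 were higher in all (7.41%). The count of 2 of 23 was near the share of all genes.

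Ldha stood at 483 CPM in KO and 919.9 CPM in WT monocytes/macrophages (-0.93 [-0.96 to -0.90]), 264 CPM in KO and 593 CPM in WT microglia (-1.17 [-1.21 to -1.12]), 301 CPM in KO and 557 CPM in WT CD8 T cells (-0.89 [-1.06 to -0.71]) and 531 CPM in KO and 1069 CPM in WT CD4 T cells (-1.01 [-1.21 to -0.81]). Pkm gave log2 ratios of -1.22 to -0.73 in these gates, with 545 CPM in KO and 1108 CPM in WT monocytes/macrophages and 331 CPM in KO and 665 CPM in WT CD4 T cells. Relative to genes of like intron length, an adjustment chosen after seeing the data, Ldha gave -1.17 to -0.80 and Pkm -1.32 to -0.81, so both stayed lower in KO. Tpi1, triose phosphate isomerase, was lower in 3 gates, with 313 CPM in KO and 816 CPM in WT monocytes/macrophages (-1.38 [-1.42 to -1.34]), -1.53 [-1.59 to -1.48] in microglia and -1.15 [-1.49 to -0.83] in CD4 T cells. Pgam1, phosphoglycerate mutase, was lower in the same 3 gates at -0.83 [-0.87 to -0.80], -1.21 [-1.27 to -1.15] and -0.89 [-1.26 to -0.54]. Pgk1, Eno1 and Gapdh, enzymes between or beside these steps, were not: in monocytes/macrophages they gave -0.02 [-0.05 to 0.01], -0.18 [-0.22 to -0.14] and 0.09 [0.07 to 0.11], and Eno1 was higher in KO CD8 T cells (0.68 [0.41 to 0.96]). Mif, whose introns span 143 bases, was lower in KO microglia (-0.85 [-0.89 to -0.82]) and monocytes/macrophages (-0.61 [-0.64 to -0.59]).

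Slc2a1 was lower in KO monocytes/macrophages at 121 CPM in KO and 311 CPM in WT (-1.36 [-1.42 to -1.30]), in KO microglia at 103 CPM in KO and 184 CPM in WT (-0.83 [-0.91 to -0.75]) and in KO CD8 T cells (-0.67 [-1.20 to -0.15]). Slc16a3 was lower in KO monocytes/macrophages (147 CPM in KO and 263 CPM in WT, -0.84 [-0.89 to -0.78]) and microglia (-0.62 [-0.71 to -0.52]) and higher in KO CD8 T cells (35.9 CPM in KO and 17.4 CPM in WT, 1.02 [0.29 to 1.86]). Slc2a3 was higher in KO monocytes/macrophages and microglia at low levels of 3.33 CPM in KO and 0.646 CPM in WT monocytes/macrophages and 6.27 CPM in KO and 1.76 CPM in WT microglia. Hk2 was higher in KO microglia (304 CPM in KO and 127 CPM in WT, 1.26 [1.19 to 1.33]), CD8 T cells (1.32 [0.45 to 2.37]) and CD4 T cells (0.88 [0.30 to 1.47]). Its intron sequence spans 43461 bases, and relative to genes of like intron length these values were 0.79, 0.93 and 0.59. Hif1a was higher in KO microglia (0.67 [0.63 to 0.72]), CD8 T cells (719 CPM in KO and 329 CPM in WT, 1.12 [0.96 to 1.30]) and CD4 T cells (1512 CPM in KO and 935 CPM in WT, 0.69 [0.55 to 0.84]). With the same adjustment it gave 0.20, 0.74 and 0.40, past 1.5-fold in CD8 T cells alone. Ndrg1 was higher in KO monocytes/macrophages (86.7 CPM in KO and 55.9 CPM in WT, 0.63 [0.55 to 0.72]), CD8 T cells (1.41 [0.66 to 2.31]) and CD4 T cells (0.61 [-0.03 to 1.25]), and Pdk1 in microglia (0.87 [0.70 to 1.04]) and CD8 T cells (0.61 [-0.25 to 1.59]). Ankrd37 was lower in KO monocytes/macrophages (-1.23 [-1.41 to -1.07]) and microglia (-1.32 [-1.68 to -0.98]). Hilpda was lower in KO microglia (-0.73 [-0.81 to -0.65]) and CD8 T cells (-0.62 [-0.84 to -0.40]), and with that adjustment gave -0.54 and -0.31. Genotype and library kind cannot be told apart in this pair.

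**Figure D3:**
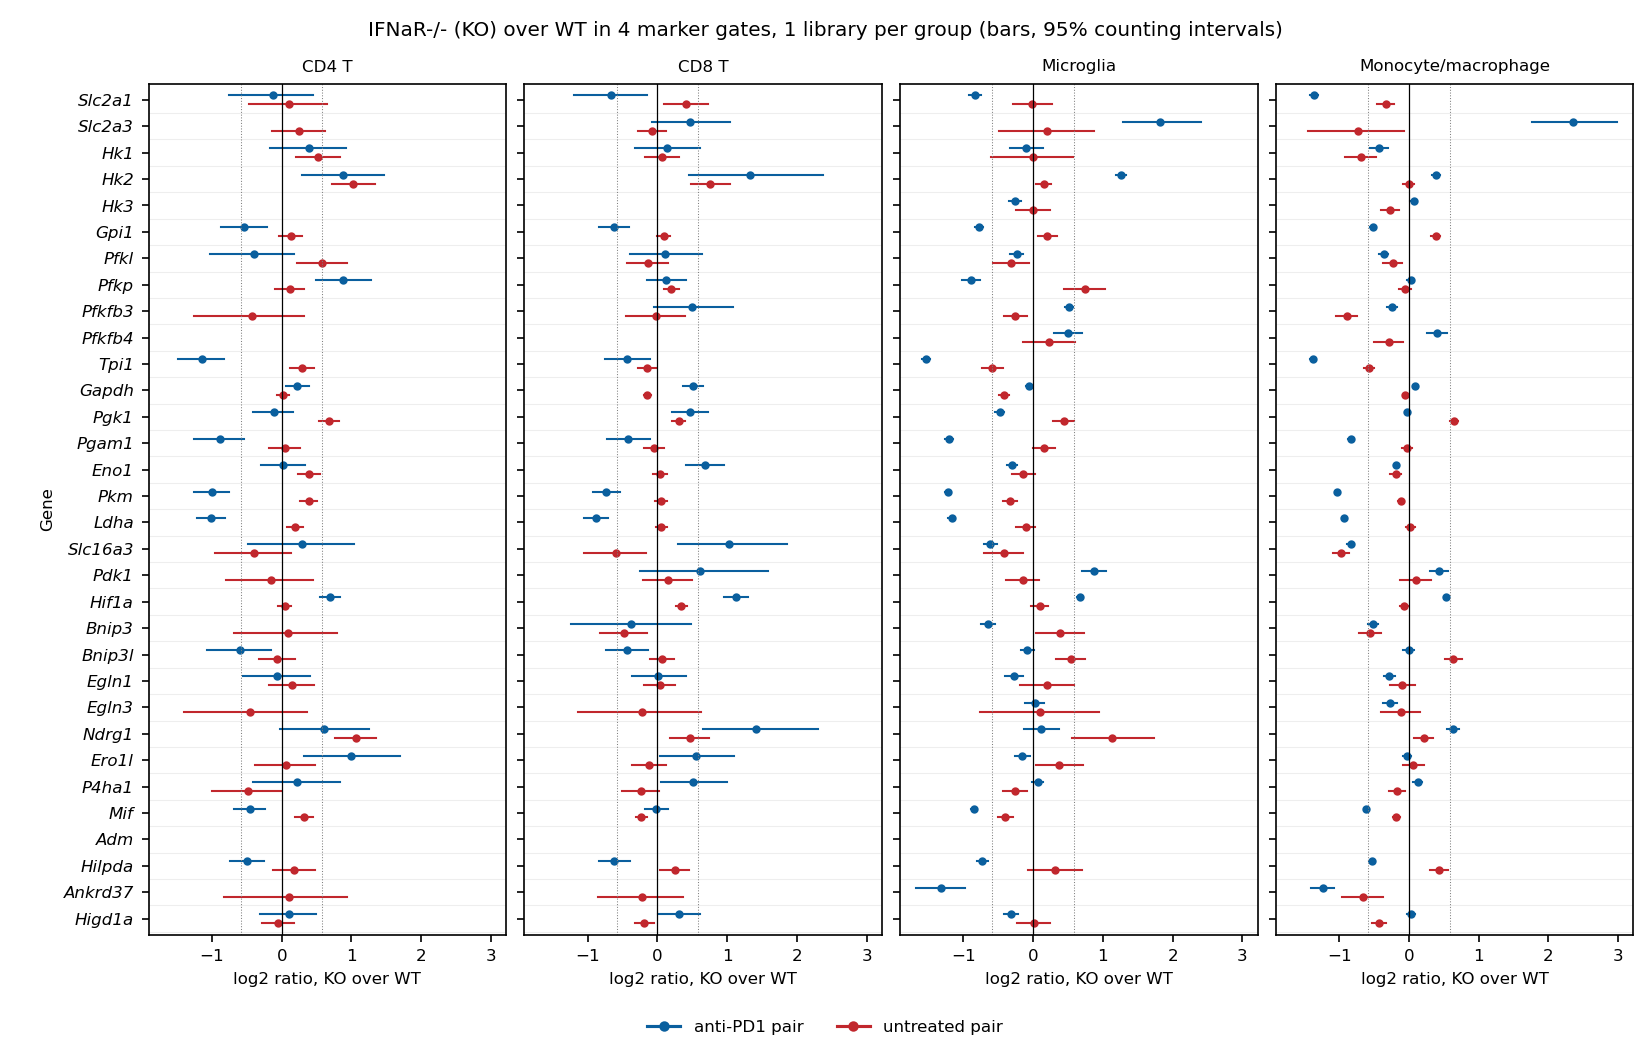
Log2 ratio of CPM, KO over WT, for each measured gene in 4 gates (points; bars, 95% counting intervals), for the anti-PD1 pair (blue) and the untreated pair (red). Ldha and Pkm lie left of 0 in the anti-PD1 pair in every gate and within 1.5-fold in the untreated pair, and Hk2 lies right of 0 in both pairs in T cells.

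Few members kept a direction past 1.5-fold in both pairs of 1 gate. Slc16a3 and Ankrd37 were lower in KO monocytes/macrophages in both (2 of 31, against 4.97% of genes, and 0 higher against 6.67%). The count of 2 of 31 was near the share of all genes. Hk2 was higher in KO CD8 T cells in both (1 of 27, against 1.98%), and Hk2 and Ndrg1 in KO CD4 T cells (2 of 23, against 1.64%). No member was lower in both pairs in CD8 (against 1.39%) or CD4 T cells (2.03%), and in microglia 0 of 30 kept a direction (3.42% higher and 2.87% lower). For Slc16a3 in monocytes/macrophages the value relative to genes of like intron length was -0.72 after anti-PD1 and -1.04 without treatment.

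Anti-PD1 libraries were set against untreated libraries within each genotype. These ratios share their libraries with the KO over WT ratios. Treatment, day of sorting, the mix of CD3+ and CD3- cells, software version, library kind, cell quality and depth differ together and cannot be told apart. Barcodes over 10% mitochondrial UMIs made up 3.30% in anti-PD1 KO, 0.693% in anti-PD1 WT, 24.2% in untreated KO and 21.0% in untreated WT. In that order, median UMIs were 3354.5, 4675, 9714 and 9444 in CD8 T cells. Monocytes/macrophages had medians of 5207, 8390, 9964 and 7103. In KO, monocytes/macrophages had 10 of 31 members higher (18.1% of all genes) and 0 lower (30.5%), microglia 9 of 31 higher (16.7%) and 4 lower (28.2%), CD8 T cells 5 of 28 higher (24.7%) and 8 lower (19.2%), and CD4 T cells 5 of 24 higher (22.7%) and 7 lower (18.8%). In WT, monocytes/macrophages had 15 of 31 higher (18.2%) and 2 lower (30.0%), microglia 17 of 31 higher (14.1%) and 4 lower (36.8%), CD8 T cells 3 of 28 higher (21.2%) and 10 lower (19.3%), and CD4 T cells 9 of 29 higher (20.1%) and 3 lower (20.6%). Over the gates that is 29 higher and 19 lower in KO, or 41 and 14 relative to genes of like intron length. The share of all genes under that adjustment is not given here, so whether members moved with all genes was not tested. TMM and DESeq2 factors shift log2 ratios by 0.17 to 0.32 in both myeloid gates and by -0.06 to 0.01 in T cells.

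Hilpda was higher after anti-PD1 in all 4 gates of both genotypes. Monocytes/macrophages held 226 CPM after anti-PD1 and 95.3 CPM without it in KO (1.24 [1.14 to 1.35]) and 325 CPM after anti-PD1 and 70.6 CPM without it in WT (2.20 [2.11 to 2.30]). In CD4 T cells it stood at 395 CPM after anti-PD1 and 109 CPM without it in KO and 559 CPM after anti-PD1 and 96.3 CPM without it in WT. Relative to genes of like intron length the 4 gates gave 1.64 to 2.08 in KO and 2.20 to 2.85 in WT. Slc16a3 was the other member higher in all 4 gates in KO (2 of 24, against 7.39% of 4884 genes), with 147 CPM after anti-PD1 and 85.5 CPM without it in monocytes/macrophages, and its microglial value of 0.64 [0.41 to 0.89] turned to -0.042 with cells thinned to 1000 UMIs. In KO, 0 of 24 were lower in all 4 gates (6.90%). In WT the other was Slc2a1 (2 of 28, against 4.74% of 6651 genes), with log2 ratios of 1.14 to 1.67. Slc2a3 was lower in all 4 gates in WT (1 of 28, against 8.96%), with -2.87 to -1.07. In both genotypes the count of members higher in all 4 gates was near the share of all genes.

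In the myeloid gates some further HIF targets were higher after anti-PD1 and other members lower. Egln3 stood in microglia at 43.8 CPM after anti-PD1 and 6.87 CPM without it in KO (2.64 [2.09 to 3.32]) and 43.1 CPM after anti-PD1 and 6.41 CPM without it in WT (2.72 [2.20 to 3.36]), and in monocytes/macrophages at 46.9 CPM after anti-PD1 and 18.7 CPM without it in KO and 56.4 CPM after anti-PD1 and 20.4 CPM without it in WT. Ero1l stood in monocytes/macrophages at 155 CPM after anti-PD1 and 66.8 CPM without it in KO and 157 CPM after anti-PD1 and 63.9 CPM without it in WT, and both genotypes of both gates passed 1.5-fold. Bnip3 stood there at 101 CPM after anti-PD1 and 51.2 CPM without it in KO (0.98 [0.84 to 1.12]) and 144 CPM after anti-PD1 and 75.1 CPM without it in WT (0.94 [0.85 to 1.04]). Mif was higher in all 4 of these cases as well (0.68 [0.59 to 0.77] in KO microglia and 1.24 [1.21 to 1.27] in WT monocytes/macrophages). Members lower in microglia after anti-PD1 were Slc2a3, Pfkp, Pdk1 and the HIF target Ndrg1 in KO, and Slc2a3, Hk2, Pfkfb4 and Pdk1 in WT. Pdk1 stood there at 40.9 CPM after anti-PD1 and 72.4 CPM without it in KO (-0.83 [-1.03 to -0.61]) and 22.4 CPM after anti-PD1 and 80.5 CPM without it in WT (-1.85 [-2.05 to -1.64]). Hk2 stood there at 127 CPM after anti-PD1 and 359 CPM without it in WT (-1.50 [-1.59 to -1.41]). Pfkp in KO microglia gave -0.79 [-1.01 to -0.57], which turned to 0.28 with cells thinned to 1000 UMIs. In monocytes/macrophages Slc2a3 and Pfkfb4 were lower in WT, and no measured member passed 1.5-fold lower in KO. Ldha in monocytes/macrophages stood at 483 CPM after anti-PD1 and 414 CPM without it in KO (0.22 [0.17 to 0.28]) and 919.9 CPM after anti-PD1 and 408 CPM without it in WT (1.17 [1.13 to 1.21]), and Pkm at 545 CPM after anti-PD1 and 669.8 CPM without it in KO (-0.30 [-0.34 to -0.25]) and 1108 CPM after anti-PD1 and 723 CPM without it in WT (0.62 [0.58 to 0.65]). In T cells some enzymes were lower after anti-PD1. Pgk1 in CD8 T cells gave -0.81 [-0.98 to -0.65] in KO and -0.97 [-1.20 to -0.75] in WT, Hk2 there gave -0.83 [-1.33 to -0.38] in KO and -1.40 [-2.38 to -0.65] in WT, and Pkm in KO -0.76 [-0.92 to -0.60] in CD8 and -1.06 [-1.30 to -0.82] in CD4 T cells. In WT, Pkm gave 0.02 [-0.13 to 0.16] in CD8 and 0.33 [0.19 to 0.47] in CD4 T cells, and Ldha stood in CD4 T cells at 1069 CPM after anti-PD1 and 637 CPM without it (0.75 [0.63 to 0.86]). Cells with a UMI of the 5 cell cycle genes made up 25.2% of CD8 T cells after anti-PD1 in KO, against 63.3% without it, and 26.0% against 62.0% in WT. Without such cells, lower values in KO numbered 7 over the 3 gates that kept 50 cells in each library, against 12 over the same 3 gates with them.

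**Figure D4:**
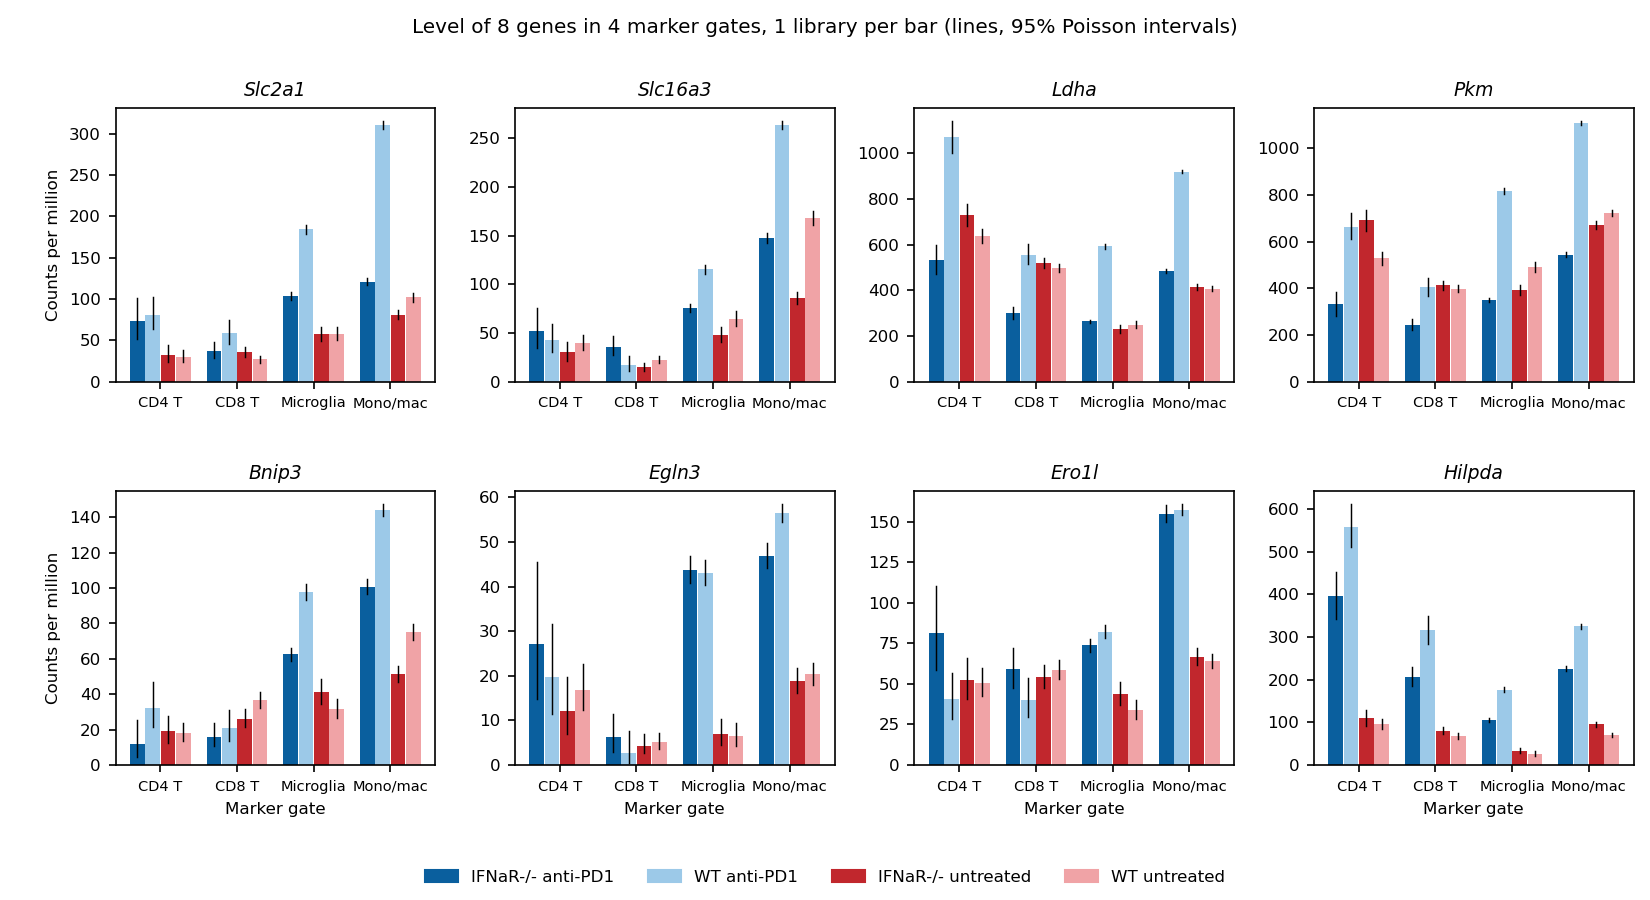
CPM of 8 genes in 4 gates, 1 bar per library (lines, 95% Poisson intervals of the counts), from the anti-PD1 KO bar at the left of each gate to the untreated WT bar at the right. Hilpda bars are higher for both anti-PD1 libraries in every gate, Egln3 and Ero1l in the myeloid gates, and Pkm and Slc2a1 stand highest in anti-PD1 WT monocytes/macrophages.

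Across monocytes/macrophages of 1 library, cells with more RNA of 1 member also held more of the others. Each cell was thinned to 3000 UMIs, and each gene's UMIs were set against the summed UMIs of the other members (2739 cells in anti-PD1 KO, 5360 in anti-PD1 WT, 816 in untreated KO and 1541 in untreated WT). The median Spearman rho over the 32 genes was 0.253, 0.185, 0.162 and 0.177 in the same order, or 0.189, 0.121, 0.141 and 0.126 with cells thinned to 1500 UMIs, and the median of other genes seen in at least 5% of cells was -0.004 to 0.006. The cells share a library and its free RNA, so these are descriptions. The highest values over the 4 libraries belonged to Tpi1 (0.42 to 0.52), Mif (0.44 to 0.50) and Pgk1 (0.41 to 0.48), followed by Gapdh (0.31 to 0.50), Pkm (0.37 to 0.45) and Ldha (0.30 to 0.46). Among HIF targets and transporters, Slc16a3 (0.32 to 0.36) and Bnip3 (0.31 to 0.34) went with the enzymes in each library, and Ero1l (0.16 to 0.27) and Slc2a1 (0.17 to 0.30) at lower values. Hif1a, whose product is set mostly by protein stability, gave 0.10 to 0.28. Pfkfb4 (-0.05 to -0.02), Slc2a3 (-0.01 to 0.04) and Bnip3l (0.00 to 0.12) showed little relation, the first 2 at low counts.

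**Figure D5:**
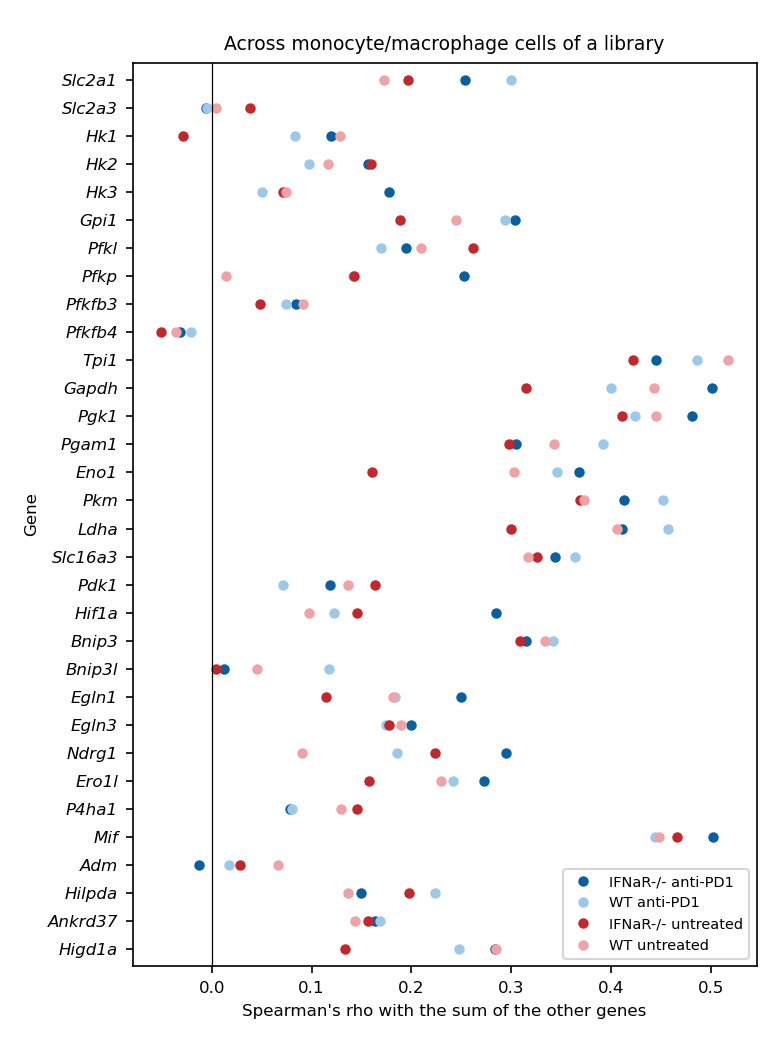
Spearman rho of each gene with the sum of the other members across monocytes/macrophages thinned to 3000 UMIs (points, 1 per library). Tpi1, Mif and Pgk1 lie at 0.41 to 0.52, and Pfkfb4 and Slc2a3 lie near 0.

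Other genes of the pathways were read from a list of 38 further genes of glucose metabolism and one of 35 further hypoxia genes. The share of all genes past 1.5-fold in each gate and comparison, given above with the members' counts, is the background of these counts. Without treatment, KO against WT, the glucose list had 10 of 34 higher and 2 lower in monocytes/macrophages (15.2% and 10.8% of all genes), with a median log2 ratio of 0.40, against 0.08 over all genes. It had 4 of 30 higher and 1 lower in microglia, 2 of 24 higher and 2 lower in dendritic cells, 0 of 8 higher and 3 lower in neutrophils, 3 of 28 higher and 0 lower in CD8 and 3 of 19 higher and 1 lower in CD4 T cells. The hypoxia list had 5 of 29 higher and 3 lower in monocytes/macrophages, 10 of 25 higher and 1 lower in microglia (7.72% and 7.72%), 5 of 21 higher and 0 lower in dendritic cells, 6 of 9 higher and 0 lower in neutrophils (16.9% and 11.3%), 8 of 27 higher and 1 lower in CD8 (5.99% and 3.19%) and 3 of 20 higher and 0 lower in CD4 T cells. After anti-PD1, KO against WT, the glucose list had 4 of 36 higher and 7 lower in monocytes/macrophages (23.3% and 16.0%), 6 of 36 higher and 6 lower in microglia, 0 of 16 higher and 3 lower in CD8 and 0 of 10 higher and 4 lower in CD4 T cells. The hypoxia list had 7 of 30 higher and 7 lower in monocytes/macrophages, 4 of 28 higher and 7 lower in microglia (29.2% and 13.8%), 8 of 19 higher and 5 lower in CD8 (27.1% and 15.0%) and 4 of 13 higher and 4 lower in CD4 T cells. Of both lists, 4 genes were past 2-fold in the same direction in both pairs of a gate. They were 2 of 61 genes measured in both pairs in monocytes/macrophages (3.96% of all genes), 1 of 53 in microglia (1.84%), 1 of 35 in CD8 (1.04%) and 0 of 23 in CD4 T cells (0.965%). Slc16a1, the lactate and pyruvate transporter MCT1, was higher in KO monocytes/macrophages, at 18.9 CPM in KO and 6.20 CPM in WT (1.61 [1.40 to 1.82]) after anti-PD1 and 15.6 CPM in KO and 6.67 CPM in WT (1.22 [0.84 to 1.62]) without treatment. Its relative Slc16a3 was lower in the same cells. Slc2a6, a glucose transporter family member induced in inflammatory macrophages, was lower there, at 10.2 CPM in KO and 22.8 CPM in WT (-1.16 [-1.37 to -0.96]) and 10.9 CPM in KO and 24.2 CPM in WT (-1.15 [-1.49 to -0.83]). Cxcr4, a chemokine receptor and HIF target, was higher in KO CD8 T cells, at 61.3 CPM in KO and 27.0 CPM in WT (1.17 [0.59 to 1.82]) and 39.0 CPM in KO and 18.6 CPM in WT (1.06 [0.72 to 1.41]). Rora, a nuclear receptor, was higher in KO microglia, at 23.4 CPM in KO and 10.1 CPM in WT (1.21 [0.98 to 1.46]) and 21.8 CPM in KO and 9.50 CPM in WT (1.19 [0.62 to 1.79]).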

How the data were processed

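Droplet single-cell RNA libraries, 1 per group, were read from the deposited matrices of UMI counts per gene and cell, which the authors made with Cell Ranger 3.1.0 (untreated) and 7.2.0 (anti-PD1), per the file headers. The builds are mm10 and GRCm38, per the submitters' processing notes. Whether reads in introns were counted is not given in the sources used here. Groups have no replicate, so variation between mice, pools and libraries was not measured. UMIs are counted molecules, and intervals and floors cover counting error only, so the full uncertainty is not known. Cells with fewer than 200 genes or over 10% of UMIs from mitochondrial genes were dropped and no doublet caller was run; cells that met several gates (35 in untreated KO, 152 in untreated WT, 1 and 0 in the anti-PD1 libraries) and those that met none (17.4 to 23.1%) were left out. UMIs were summed per gate and library with at least 50 cells, and log2 ratios of CPM used a pseudocount of 0.5 UMIs and exact binomial intervals. No test was run and no p-value computed. A difference was named past 1.5-fold with at least 50 UMIs in the pair; other pathway genes were named past 2-fold in the same direction in both genotype pairs of a gate. Members and lists were chosen with earlier results of these data known. Zero counts have a floor of 3 UMIs. Promoter windows came from RefSeq (GRCm38.p6) and gene structures from GENCODE (GRCm38). Alternatives were another cell filter, gate strictness, depth, scaling, minimum and size rule. Another 2 were chosen after seeing the data: ratios relative to genes of like intron length, and gate counts in untreated libraries alone. The comparison code, checked on simulated counts, recovered the known folds. Python 3.11.15, numpy 2.4.6, scipy 1.17.1, pandas 2.3.3, matplotlib 3.10.9, R 4.3.3, edgeR 4.0.16 (TMM factors) and DESeq2 1.42.0 (size factors) were used.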

Additional observations from a re-analysis of the deposited data

Results flagged for a closer look

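Several log2 ratios pointed past 1.5-fold in opposite directions in 2 comparisons, and with 1 library per group the differences between them were not tested. KO over WT, Pfkp in microglia was -0.89 after anti-PD1 and 0.74 without treatment, Slc16a3 in CD8 T cells was 1.02 after anti-PD1 and -0.59 without, and Slc2a3 in monocytes/macrophages was 2.36 after anti-PD1 and -0.73 without, at a few CPM. Anti-PD1 over untreated, Pfkp in microglia was -0.79 in KO and 0.84 in WT, and Tpi1 in CD4 T cells was -0.83 in KO and 0.62 in WT.

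Other ratios differed in direction between gates of the same pair. After anti-PD1, KO over WT, Pfkp was 0.89 in CD4 T cells against -0.89 in microglia, and Slc16a3 was 1.02 in CD8 T cells against -0.84 in monocytes/macrophages. Anti-PD1 over untreated, Bnip3 in KO was 0.98 in monocytes/macrophages and -0.68 in CD8 T cells, and in WT it was 1.62 in microglia and -0.78 in CD8 T cells. In WT, Pfkp was 0.84 in microglia and -0.75 in CD4 T cells, Pgk1 was 0.79 in microglia and -0.97 in CD8 T cells, and Tpi1 was 1.03 in microglia and -0.59 in CD8 T cells. Treatment, day, sort, software version, library kind, cell quality and depth cannot be told apart in these.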

How the results depend on the processing

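The 510 log2 ratios of single genes gave 5347 values under 11 alternatives of scaling or cells: 4255 lay within the counting interval and 1092 outside it. The sign changed in 353 values of ratios within 1.5-fold and in 8 of ratios past it. In untreated KO over WT, values at least 1.5-fold higher numbered 14, or 7 with cells thinned to 1000 UMIs, 23 with no minimum count and 4 at 2-fold; lower ones numbered 12, or 1 at 2-fold. In anti-PD1 KO over WT, 17 were higher, or 11 with TMM, 11 with DESeq2 size factors, 8 with thinned cells and 8 at 2-fold, and 30 lower, or 12 at 2-fold. In KO after anti-PD1, 29 were higher, or 16 with thinned cells and 13 at 2-fold, and 19 lower, or 7 without cycling cells and 1 at 2-fold. In WT after anti-PD1, 44 were higher, or 23 at 2-fold, and 19 lower, or 11 with thinned cells and 10 at 2-fold. Other counts stayed within 1.5 times under the alternatives run. The share of all genes under each alternative is not given here. Thinning leaves fewer UMIs, so that 344 of the 510 ratios reached the minimum, and a higher size rule and fewer gates also reduce such counts by construction. The 7 without cycling cells stand against 12 over the same 3 gates with them; the cause of the other moves was not tested. A total without mitochondrial, ribosomal and receptor segment genes shifts log2 ratios by 0.11 in anti-PD1 KO over WT monocytes/macrophages and by -0.11 in WT monocytes/macrophages and T cells after anti-PD1. The sign changes of ratios past 1.5-fold were: untreated KO over WT, Slc2a3 in monocytes/macrophages 0.27 as a mean over cells, Ndrg1 in neutrophils -0.13 under the strict cell filter, -0.19 without the cells of highest UMI count and -0.43 as a mean over cells, and Slc16a3 in neutrophils 0.14 with thinned cells; and, after anti-PD1 with thinned cells, Pfkp 0.28 and Slc16a3 -0.042 in KO microglia and Tpi1 -0.21 in WT CD4 T cells. No ratio past 1.5-fold changed sign under TMM, DESeq2, the other total or the intron adjustment, while ratios within 1.5-fold changed sign 42, 38, 28 and 49 times in that order. The median rho across anti-PD1 WT monocytes/macrophages was 0.185, or 0.121 with cells thinned to 1500 UMIs. No paired analysis was possible because each group had 1 library.

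Depth limits low genes most: neutrophils had 74 and 75 cells, and a count of 0 there allows up to 11.6 CPM in untreated WT.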
